A study of Mus musculus with 7 samples.

Results

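The genes examined are 10 that make, restrain or receive nitric oxide in and around endothelium, namely Nos3, Nosip, Nostrin, Cav1, Ddah1, Ddah2, Gucy1a1, Gucy1b1, Prkg1 and Pde5a. They were taken by symbol from the array's annotation, 10 of 22180 genes with a probe set of exactly 1 symbol, and each had 1 such probe set. Expression was measured in lung endothelial cells of C57BL/6-background mouse embryos aged E18.5. There were 3 arrays labelled wild-type (WT1 to WT3) and 4 labelled Sash1-knockout (KO1 to KO4), which per the labels came from wild-type and Sash1-/- littermates. The labels name no Cre driver or tissue restriction for the knockout. Viable cells were sorted for CD31 and against CD45 and CD326 and frozen, and RNA was amplified with a whole-transcriptome kit made for low input. Whether the samples are different embryos is not stated, so all p-values are set against a spread between samples that may be technical. The series asks how endothelial Sash1 bears on surfactant and nitric oxide signalling.

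Endothelial nitric oxide synthase makes nitric oxide from arginine and is held inactive by caveolin at the caveolae of the plasma membrane. The gas diffuses to soluble guanylate cyclase, a dimer of an alpha and a beta subunit, which makes cyclic GMP, and cyclic GMP acts largely through the kinase encoded by Prkg1 until phosphodiesterases hydrolyse it. In lung vessels the synthase sits in endothelium, while the cyclase, the kinase and phosphodiesterase 5 are best known in the smooth muscle beneath it, where they lower vessel tone.

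Promoter sequence from RefSeq was matched for 9 members, all but Nos3. Those shown belong to the cyclase subunits, of which Gucy1b1 alone among the members had no overlap between labels, to the Ddah pair, whose array profiles parted on 1 array, and to Cav1, the member with the smallest spread. Each is the 250 bases before the most upstream listed start (build GRCm38.p6, strand of the gene, 5′ to 3′), with matches on either strand to any of 7 short motifs in capitals. The motifs, spelled out after the sequences with their shares, are a GC box, a CCAAT box, a TATA box, a CACCC box and elements of ETS, AP-1 and cyclic AMP response factors. No matches overlapped in the 5 windows.
Gucy1b1, chr3:82074712-82074961, minus strand: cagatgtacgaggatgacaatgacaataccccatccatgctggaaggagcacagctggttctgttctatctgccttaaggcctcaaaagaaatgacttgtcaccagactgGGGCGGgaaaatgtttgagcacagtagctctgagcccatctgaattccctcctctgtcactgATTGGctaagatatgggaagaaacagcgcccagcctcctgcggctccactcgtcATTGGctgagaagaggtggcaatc
Gucy1a1, chr3:82145651-82145900, minus strand: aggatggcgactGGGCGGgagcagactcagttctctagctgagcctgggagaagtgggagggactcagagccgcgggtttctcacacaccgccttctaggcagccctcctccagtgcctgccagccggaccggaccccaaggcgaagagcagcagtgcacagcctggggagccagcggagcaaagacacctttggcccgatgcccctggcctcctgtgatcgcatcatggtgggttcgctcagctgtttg
Ddah1, chr3:145758442-145758691, plus strand: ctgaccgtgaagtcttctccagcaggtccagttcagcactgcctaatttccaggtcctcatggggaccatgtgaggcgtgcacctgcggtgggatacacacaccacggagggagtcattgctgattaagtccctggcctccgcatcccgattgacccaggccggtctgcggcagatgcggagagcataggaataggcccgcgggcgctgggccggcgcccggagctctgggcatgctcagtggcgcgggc
Ddah2, chr17:35058785-35059034, plus strand: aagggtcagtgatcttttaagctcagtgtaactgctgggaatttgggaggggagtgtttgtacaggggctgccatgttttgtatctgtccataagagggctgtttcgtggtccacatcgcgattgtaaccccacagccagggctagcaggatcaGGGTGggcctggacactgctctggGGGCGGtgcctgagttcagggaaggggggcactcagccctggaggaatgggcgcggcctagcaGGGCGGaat
Cav1, chr6:17306085-17306334, plus strand: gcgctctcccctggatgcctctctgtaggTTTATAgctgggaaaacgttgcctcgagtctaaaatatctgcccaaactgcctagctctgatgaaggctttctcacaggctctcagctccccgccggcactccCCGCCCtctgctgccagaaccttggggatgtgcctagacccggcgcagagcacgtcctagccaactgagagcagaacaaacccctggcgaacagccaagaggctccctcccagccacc

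The Gucy1b1 window held 1 GC box (GGGCGG, the site of SP and KLF factors) and 2 CCAAT boxes (CCAAT, which reads ATTGG on the other strand), the Gucy1a1 window 1 GC box and no CCAAT box. Both genes lie on chromosome 3, on the minus strand, with 0 other genes of the RefSeq table between them. The Ddah2 window held 2 GC boxes and 1 CACCC box (CACCC, here as GGGTG), and the Ddah1 window, with 64.0% G and C, held no match to any of the 7 motifs. The Cav1 window held a TATA box, here as TTTATA, and 1 GC box, here as CCGCCC. Over 27025 gene promoters of the same length, 33.0% held the GC box and 34.5% the CCAAT box. The TATA box (TATAAA) was in 13.0% of them, the CACCC box in 51.3% and the ETS element (CCGGAA) in 12.3%. The AP-1 element (TGANTCA) was in 6.85% and the cyclic AMP response element (TGACGTCA) in 1.6%. Of the 9 member windows 6 held the GC box, 4 the CACCC box, 2 the CCAAT box, 2 the ETS element, 1 the TATA box and 0 the AP-1 or cyclic AMP response element. These matches describe letters and not bound sites.

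Sash1 itself, a scaffold protein gene, was at log2 values of 9.02, 8.73 and 8.33 on the wild-type-labelled arrays and at 8.29, 8.21, 8.68 and 8.13 on the knockout-labelled arrays. Its signal goes against the label for WT3, which was close to KO1 at 8.29, and for KO3. The deleted part of the gene is not named in the labels, and probes that lie outside it would tell nothing about genotype. Groups are therefore named by label throughout and every direction rests on the labels. Pecam1, which encodes CD31, lay between 11.03 and 11.21 on all arrays. Ptprc (CD45) lay between 3.51 and 4.85 and Epcam (CD326) between 4.06 and 5.31. Some other markers of epithelium and leukocytes, named after their values were seen, were brighter. The epithelial marker Sftpc was at 11.97, 11.9 and 11.92 on WT1 to WT3 and at 10.2 on KO4. The leukocyte marker Lyz1 was at 11.09, 10.45 and 9.32 on WT1 to WT3. It was at 10.27, 8.93, 10.66 and 4.02 on KO1 to KO4, while the leukocyte marker S100a8 was at 10.32 on KO4. The purity of the sort was not tested. Of 16637 genes tested with limma, 0 (0.0%) had an adjusted p under 0.05, 556 (3.34%) had an unadjusted p under 0.05, and 408 (2.45%) had no overlap between labels.

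Differences between labels were 0.06 or less in size on the log2 scale for the synthase gene Nos3 and for Nosip, Nostrin, Cav1, Ddah2 and Pde5a. Gucy1b1, the beta subunit of the cyclase, was 0.30 higher on the knockout-labelled arrays, and Ddah1 and Gucy1a1 were 0.29 and 0.26 higher with overlap between labels. Prkg1 was 0.21 lower, also with overlap. No member passed limma's test over all genes, with adjusted p-values of 0.971 to 1.0. The members' differences were positive in 8 and negative in 2, with a median of 0.05, against 54.4% positive and a median of 0.02 over all genes tested. All 10 members were above the limit for dim genes. With median centring 7 differences were positive, Nostrin turning to -0.01.

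**Figure D1:**
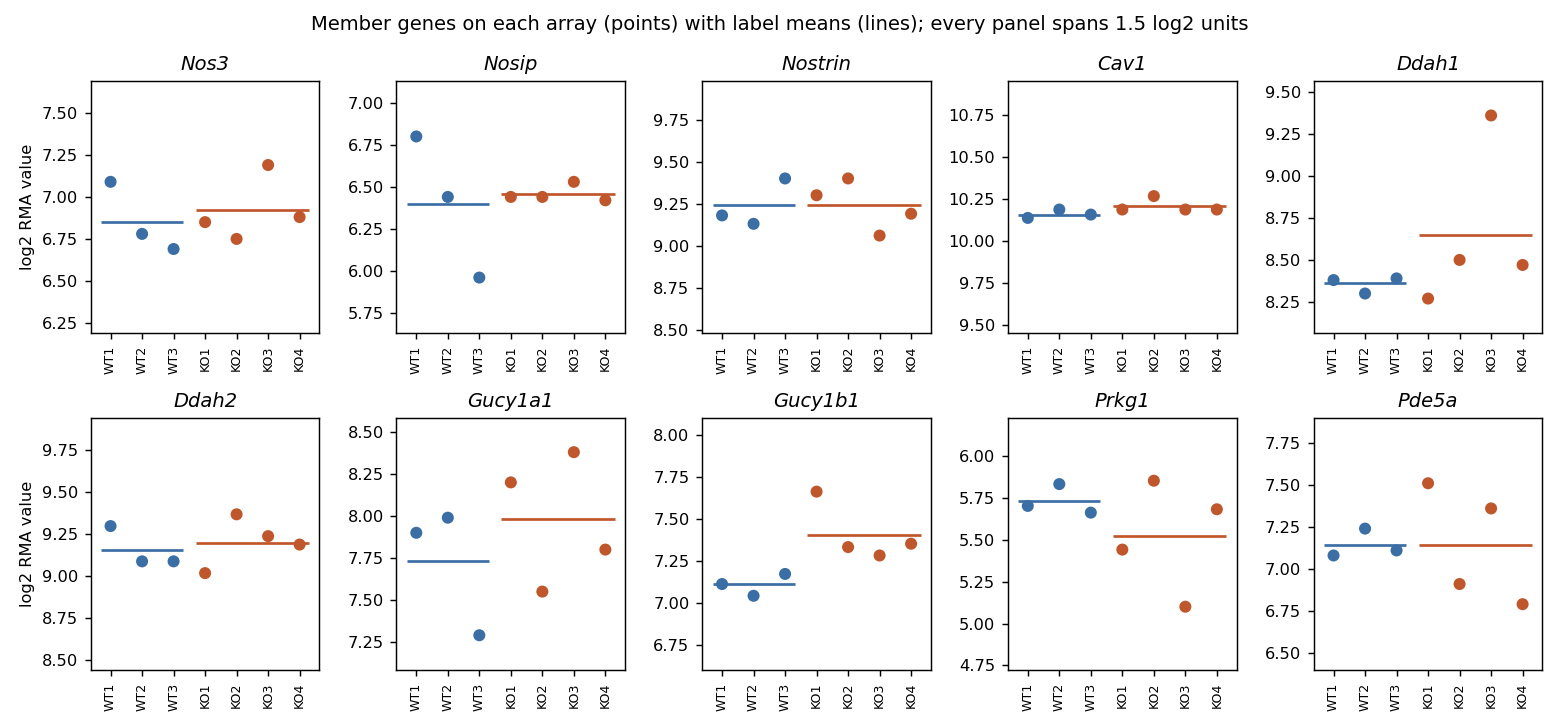
Log2 RMA value of each member (vertical axis) on each array (horizontal axis), blue for arrays labelled wild-type (WT1 to WT3) and orange for arrays labelled Sash1-knockout (KO1 to KO4), with a line at each label's mean and 1.5 log2 units in every panel. Gucy1b1 is the panel in which all orange points, 7.28 to 7.66, lie above all blue points, 7.04 to 7.17, while the Cav1 points span 0.13 and the Ddah1 points 1.09.

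Nos3, the endothelial synthase (probe set 17435282, chromosome 5), was at 7.09, 6.78 and 6.69 on WT1, WT2 and WT3 and at 6.85, 6.75, 7.19 and 6.88 on KO1, KO2, KO3 and KO4, the order kept below. KO3 and WT1 were the high ones, and the labels overlapped over most of the range. The means were 6.85 ± 0.21 (SD, n = 3) and 6.92 ± 0.19 (SD, n = 4), a difference of 0.06 (SE 0.14, adjusted p = 0.982 in limma). On a linear scale the knockout-labelled level was 105% of the wild-type-labelled level, with a 95% confidence interval of 82.7% to 132%. The sign turned without WT3 (-0.02) or KO3 (-0.03), and the difference was 0.18 without WT1.

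Cav1, which encodes caveolin-1, the coat protein of caveolae that binds and restrains the synthase (probe set 17456161, chromosome 6), was at 10.14, 10.19 and 10.16 on the wild-type-labelled arrays. It was at 10.19, 10.27, 10.19 and 10.19 on the knockout-labelled arrays. These values lay within 0.13 of each other, and 1.88% of all genes tested had a smaller SD over the 7 arrays. The difference was 0.05 (SE 0.07), with a knockout-labelled level at 103% of the wild-type-labelled one (91.7% to 116% by the 95% confidence interval), and it ranged from 0.03 to 0.06 with each array left out.

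Nostrin, an adaptor that draws the synthase away from the plasma membrane (probe set 17371390, chromosome 2), was at 9.18, 9.13 and 9.40 on the wild-type-labelled arrays. Its values on the knockout-labelled arrays were 9.30, 9.40, 9.06 and 9.19. High and low values occurred under both labels, the means were 9.24 for each, and the difference of 0.00 had a 95% confidence interval of -0.27 to 0.27. Its sign was negative without WT1 (-0.03), WT2 (-0.05), KO1 (-0.02) or KO2 (-0.05). KO3, highest for Nos3, was lowest for Nostrin, and WT3, lowest for Nos3, was level with KO2 as highest for Nostrin.

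Nosip, a synthase-interacting protein that moves the enzyme within the cell (probe set 17477679, chromosome 7), was at 6.80, 6.44 and 5.96 on the wild-type-labelled arrays and at 6.44, 6.44, 6.53 and 6.42 on the knockout-labelled arrays. The wild-type-labelled values enclosed all knockout-labelled values, with ranges of 0.84 and 0.11. The mean difference was 0.06 (95% confidence interval -0.38 to 0.49). It was -0.16 without WT3 and 0.26 without WT1, so each of these arrays set its sign or size.

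Ddah1 and Ddah2 encode the dimethylarginine dimethylaminohydrolases, which break down a methylated arginine that inhibits nitric oxide synthases. Ddah1 (probe set 17403439, chromosome 3) was at 8.38, 8.30 and 8.39 on the wild-type-labelled arrays and at 8.27, 8.50, 9.36 and 8.47 on the knockout-labelled arrays. KO3 stood well above the other 6, and the remaining knockout-labelled values surrounded the wild-type-labelled ones. The difference was 0.29 (SE 0.25, 95% confidence interval -0.29 to 0.88, adjusted p = 0.971 in limma), and 0.06 without that array. Of all genes tested, 87.5% had a smaller SD over the arrays.

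Ddah2 (probe set 17336906, chromosome 17) was at 9.30, 9.09 and 9.09 on the wild-type-labelled arrays and at 9.02, 9.37, 9.24 and 9.19 on the knockout-labelled arrays. Its difference was 0.05 (95% confidence interval -0.22 to 0.31), and -0.01 without KO2. The array that was high for Ddah1 was not an extreme for Ddah2. As a difference of log2 values within an array, Ddah1 minus Ddah2 was 0.12 on KO3 and between -0.92 and -0.70 on the other 6, which shows unequal change of the 2 transcripts on that array and no order of their levels.

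**Figure D2:**
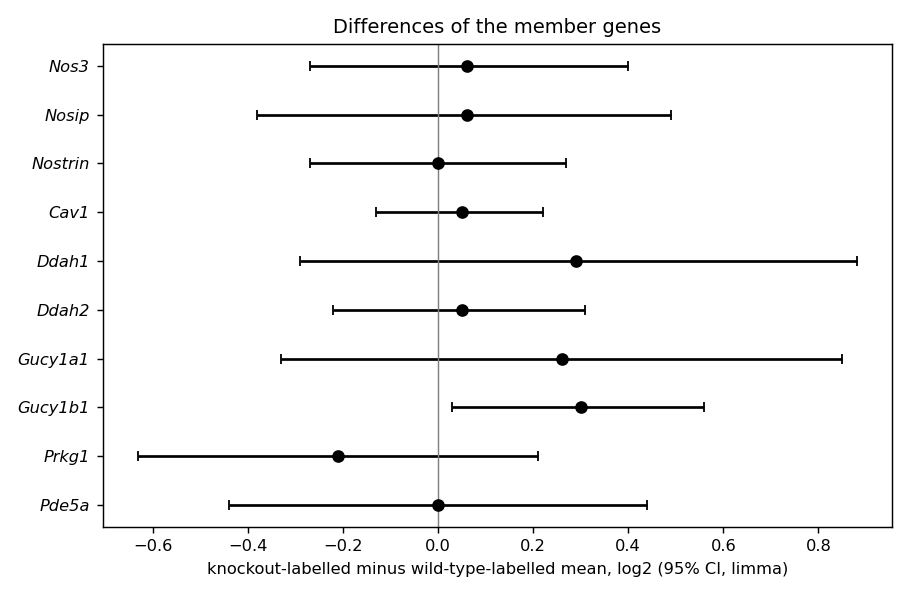
Knockout-labelled minus wild-type-labelled mean of each member on the log2 scale (horizontal axis), with bars for limma's 95% confidence interval from 3 and 4 arrays. The Gucy1b1 interval, 0.03 to 0.56, is the only one of the 10 clear of 0 before correction for the genes tested, and the Cav1 interval, -0.13 to 0.22, is the narrowest.

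Gucy1b1 encodes the beta subunit of soluble guanylate cyclase, which carries the haem that binds nitric oxide. Its probe set 17406205 was at 7.11, 7.04 and 7.17 on the wild-type-labelled arrays and at 7.66, 7.33, 7.28 and 7.35 on the knockout-labelled arrays. All 4 knockout-labelled values lay above all 3 wild-type-labelled values, and KO1 was the highest. The means were 7.11 ± 0.07 (SD, n = 3) and 7.40 ± 0.17 (SD, n = 4), a difference of 0.30 (SE 0.11, unadjusted p = 0.0327, adjusted p = 0.971 in limma), with a knockout-labelled level at 123% of the wild-type-labelled one (102% to 148% by the 95% confidence interval). Gucy1b1 was thus 1 of 10 members without overlap, where 2.45% of all genes tested had none and 1.77% had none with higher knockout-labelled values. Over 16 settings, the reported one among them, its difference stayed between 0.21 and 0.37 with an unadjusted p of 0.0293 to 0.0965 and an adjusted p of 0.451 to 1.0. The unadjusted p was 0.0632 with quantile normalization, 0.0836 with the replicate block, 0.0705 without WT1 and 0.0965 without WT2, and under 0.05 with the other settings. The filters on dim genes, the intensity trend and, for a gene of 1 probe set, the mean of probe sets cannot change the difference. Its constancy under these settings is therefore no evidence of stability.

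Gucy1a1, the alpha subunit (probe set 17406221), was at 7.90, 7.99 and 7.29 on the wild-type-labelled arrays and at 8.20, 7.55, 8.38 and 7.80 on the knockout-labelled arrays. KO3 and KO1 were highest, WT3 was lowest, and the labels overlapped. The difference was 0.26 (SE 0.25, 95% confidence interval -0.33 to 0.85, adjusted p = 0.971 in limma). It fell to 0.04 without WT3, 0.12 without KO3 and 0.18 without KO1, and was 0.39 without WT2 and 0.40 without KO2. The 2 subunits, which work as a dimer, did not share an array profile. Gucy1a1 minus Gucy1b1 was 0.79, 0.95 and 0.12 on the wild-type-labelled arrays and 0.54, 0.22, 1.1 and 0.45 on the knockout-labelled arrays, with means of 0.62 and 0.58.

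Prkg1, the cyclic GMP-dependent kinase (probe set 17363903, chromosome 19), was at 5.70, 5.83 and 5.66 on the wild-type-labelled arrays and at 5.44, 5.85, 5.10 and 5.68 on the knockout-labelled arrays. KO3 was lowest and KO2 highest, so the knockout-labelled range of 0.75 enclosed the wild-type-labelled range of 0.17. The difference was -0.21 (95% confidence interval -0.63 to 0.21, adjusted p = 0.971 in limma), and -0.07 without KO3 and -0.32 without KO2. Among the members, Prkg1 had the most negative difference.

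Pde5a encodes the cyclic GMP-specific phosphodiesterase that sildenafil inhibits (probe set 17402321, chromosome 3). Its values were 7.08, 7.24 and 7.11 on the wild-type-labelled arrays and 7.51, 6.91, 7.36 and 6.79 on the knockout-labelled arrays. The knockout-labelled arrays lay on both sides of the wild-type-labelled ones and left the means equal at 7.14, with a difference of 0.00 (95% confidence interval -0.44 to 0.44). The difference was positive without WT2 (0.05), KO2 (0.08) or KO4 (0.12), and -0.12 without KO1.

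**Figure D3:**
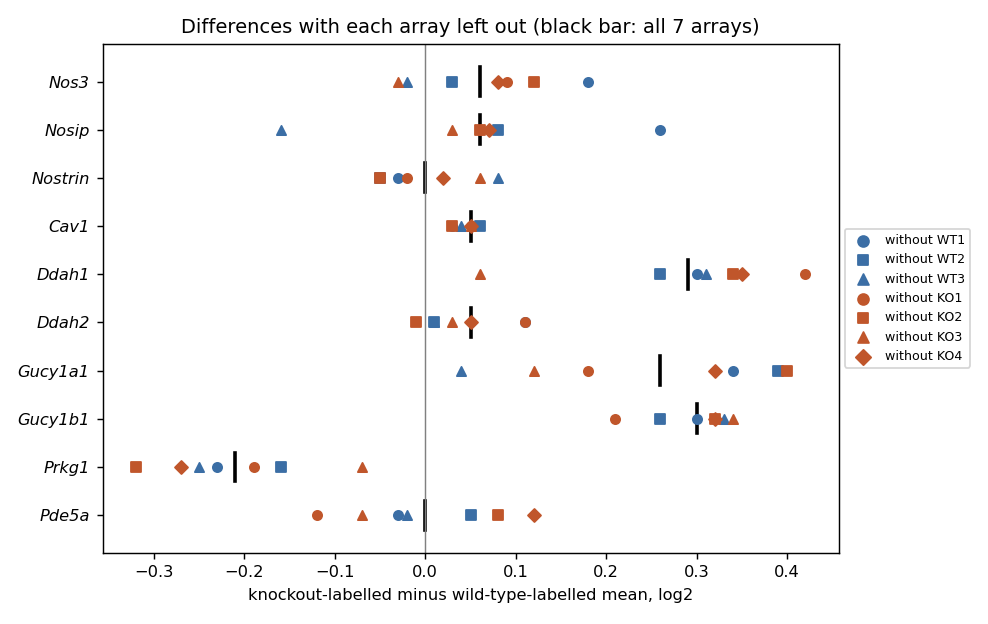
Knockout-labelled minus wild-type-labelled mean of each member on the log2 scale (horizontal axis) with each array left out in turn (blue symbols for a wild-type-labelled array, orange for a knockout-labelled array, shapes for its number) and with all 7 arrays (black bar). Gucy1b1 stays between 0.21 and 0.34, Ddah1 drops to 0.06 without KO3, and Nosip spans -0.16 to 0.26.

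No array was high or low for all members. KO3 was highest for Nos3, Ddah1 and Gucy1a1 and lowest for Nostrin and Prkg1. WT3 was lowest for Nos3, Nosip and Gucy1a1. With each array left out, 5 of the 10 members turned sign and 9 turned sign or moved by over 1.5 times, Gucy1b1 being the exception. Such a ratio says little where the difference with all arrays is near 0, as for Nostrin (0.0008) and Pde5a (-0.0008). Cav1 was counted for a move from 0.05 to 0.03. The share over all genes tested is not given, so the count is not read as a trait of the members. Without WT3 and KO3 together, whose Sash1 signal goes against their labels, 4 members had positive differences, with Gucy1b1 at 0.37, Nos3 at -0.11, Nosip at -0.19, Ddah2 at -0.002 and Gucy1a1 at -0.09.

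The cyclase, kinase and phosphodiesterase members are also known from mural cells, so markers of mural cells and fibroblasts were read beside them. All 18 markers of that list were above the limit for dim genes, on a log2 scale that has no true zero. The list mean was 6.72, 6.86 and 6.38 on the wild-type-labelled arrays and 7.02, 6.62, 6.97 and 6.41 on the knockout-labelled arrays. KO1 and KO3 were highest for this list, for Gucy1a1 and for Pde5a, and WT3 was lowest for the list and for Gucy1a1. Pde5a was lowest on KO4, at 6.79. Prkg1 went the other way from the list on KO3, its lowest array at 5.10, and on KO1, its next lowest at 5.44. The list's differences had a median of 0.09, with 13 of 18 positive (12 with quantile normalization or median centring), 5 negative and 0 called. Those of smallest unadjusted p were Tcf21, a fibroblast factor, at 0.47 and the channel subunit gene Abcc9 at 0.54 (0.30 without KO4, 0.33 without WT3). Tcf21 was the 1 gene of 18 without overlap between labels, beside 2.45% of all genes tested. Of the negative differences, that of Pdgfrb, the receptor of pericytes, was -0.20, with values between 5.74 and 6.82. The others were those of Rgs5 (-0.18), Cox4i2 (-0.16), Cnn1 (-0.05) and Notch3 (-0.02). Pdgfra, Col1a1, Col1a2, Col3a1 and Dcn had positive differences of 0.25, 0.16, 0.07, 0.13 and 0.34. The list mixes mural and fibroblast markers, so its mean does not read mural cells alone. In sorted bulk cells a change in the number of carried-over cells and a change of RNA per cell cannot be told apart. The part of mural or fibroblast RNA in the member values was not tested.

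Gucy1b1 and the mural and fibroblast list were both highest on KO1. On WT2, where the list mean was highest among the wild-type-labelled arrays, Gucy1b1 was at its lowest of all arrays, 7.04. On KO4, where the list mean was lowest among the knockout-labelled arrays, Gucy1b1 was at 7.35, above all wild-type-labelled values. Whether mural or fibroblast RNA had a part in the Gucy1b1 values was not tested.

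Platelets also carry the cyclase, the kinase and phosphodiesterase 5. Of 9 platelet markers listed, 6 were tested, with list means of 4.70 to 5.43 on the wild-type-labelled arrays and 4.29 to 5.44 on the knockout-labelled arrays. All 6 differences were negative, with a median of -0.20 and 0 called, among them the chemokine gene Pf4 at -0.72 and Treml1 at -0.22. Pf4 was -0.43 without WT1, and Treml1 was -0.05 without KO4 and -0.35 without KO3. With all arrays, the differences of Gucy1b1 and Gucy1a1 were positive, that of Prkg1, at -0.21, had the sign of the platelet markers, and that of Pde5a was 0.00. The arrays of Prkg1 did not follow the platelet list. On KO3, where the list mean was highest at 5.44, Prkg1 was at its lowest, 5.10, and Gucy1a1 at its highest, 8.38. On KO2, where the list mean was 4.57, Prkg1 was at its highest, 5.85. The part of platelet RNA in these members was not tested.

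The immediate early and dissociation stress genes averaged 9.15, 8.93 and 7.66 on the wild-type-labelled arrays and 8.78, 7.59, 9.43 and 7.02 on the knockout-labelled arrays. KO3, highest for this list, was also highest for Nos3, Ddah1 and Gucy1a1 and lowest for Prkg1 and Nostrin. Of the 15 genes 13 had negative differences and 0 were called, with the AP-1 gene Fosb at -0.82 and Ier3 at 0.44 (0.18 without KO1, 0.74 without WT3). Fosb was at -1.62 without WT3 and at -0.39 without WT1. The part of these stress genes in the member values was not tested.

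Pan-endothelial markers averaged 10.11 to 10.19 and 10.06 to 10.29, with 5 of 10 differences positive (3 with median centring), Erg, an endothelial transcription factor, at 0.19 (0.10 without WT2) and Egfl7 at -0.14 (-0.07 without WT3). Lung epithelium markers averaged 7.11 to 8.10 and 6.84 to 7.92, with 4 of 14 differences positive and a median of -0.13. Among them the surfactant protein gene Sftpa1 was at -1.0 (-0.05 without KO4, -0.58 without WT1) and Foxj1 at -0.12 (-0.04 without WT1). The log2 value of Sftpa1 was 4.7 on KO4 and between 7.78 and 9.38 on the other arrays. Leukocyte markers averaged 5.65 to 6.38 and 5.10 to 6.17, with 1 of 13 differences positive (0 with median centring) and a median of -0.29. Cd68 was at -0.52 (-0.25 without KO4) and C1qb at -0.31 (-0.13 without KO2, -0.51 without KO3). The part of RNA from these cells in the member values was not tested.

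**Figure D4:**
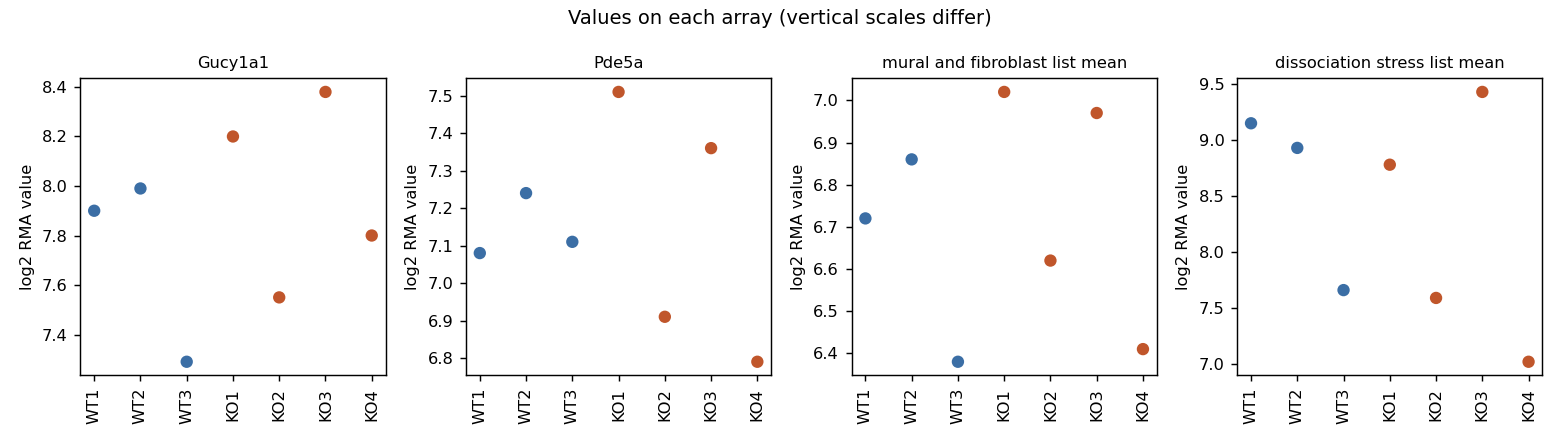
Log2 RMA values (vertical axes, scales differ) of Gucy1a1 and Pde5a and the mean values of the mural and fibroblast list (18 genes) and the dissociation stress list (15 genes) on each array, blue for wild-type-labelled and orange for knockout-labelled. KO1 and KO3 are highest for Gucy1a1, Pde5a and the mural and fibroblast list, at 7.02 and 6.97 for the list mean. Prkg1, not drawn here, was lowest on KO3 and next lowest on KO1.

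The wider pathway was described through 54 further genes in 5 lists, of which 50 had a probe set with 1 symbol and 43 were tested. Of these 28 had positive and 15 negative differences, with a median of 0.07, against 0.02 over all genes tested. By limma 0 had an adjusted p under 0.05, 1 had an unadjusted p under 0.05 and 1 had no overlap between labels, beside 3.34% and 2.45% of all genes tested. Differences ranged from -0.38 to 0.42.

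Partners of the synthase, the other caveolins and the other synthases had positive differences in 10 of 13 genes, with a median of 0.15. Cavin2, a coat protein of endothelial caveolae, was at 9.75, 9.79 and 10.14 on the wild-type-labelled arrays and at 10.10, 10.18, 10.28 and 10.27 on the knockout-labelled arrays. The labels overlapped only through WT3. The difference was 0.31 (unadjusted p = 0.0322, adjusted p = 0.971 in limma). Nos1ap, an adaptor of the neuronal synthase, differed by 0.19, and by 0.10 with the mean of its probe sets. Cav3, the muscle caveolin, named after its values were seen as the gene without overlap, was at 3.38, 3.44 and 3.41 against 3.45, 3.45, 3.75 and 3.58. These values lay near the limit for dim genes, and the labels were parted only by 3.44 against 3.45 (unadjusted p = 0.181 in limma). Nos2, the inducible synthase, also named after its values were seen, spanned 5.72 on KO3 to 7.90 on WT3 and differed by 0.07.

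Genes of methylarginine formation and of nitric oxide by-products had positive differences in 5 of 6, with a median of 0.16. Adh5, which reduces nitrosoglutathione, was at 7.26, 7.01 and 6.94 on the wild-type-labelled arrays and at 7.19, 7.42, 7.31 and 7.39 on the knockout-labelled arrays. WT1 overlapped the knockout-labelled values. Adh5 differed by 0.26 (adjusted p = 0.971 in limma), and Cyb5r3, the reductase that keeps the cyclase haem in its nitric oxide-sensitive state, by 0.17 (0.11 without KO4).

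The other cyclic GMP makers and the natriuretic peptide system had positive differences in 3 of 7 genes and a median of -0.10. Gucy1a2, the alternative alpha subunit that also pairs with the beta subunit, was at 4.32, 4.50 and 3.99 on the wild-type-labelled arrays and at 5.07, 4.45, 4.50 and 4.72 on the knockout-labelled arrays. Its knockout-labelled values all lay above WT1 and WT3, and the lowest, on KO2, lay below WT2. The difference was 0.42 (adjusted p = 0.971 in limma), and 0.27 without WT3. Nppc, the C-type natriuretic peptide that endothelium secretes, differed by 0.26 and by 0.15 without KO4.

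The other phosphodiesterases and the exporters of cyclic GMP had positive differences in 6 of 10 genes, with a median of 0.08, and the genes of smallest unadjusted p were Pde1c, with a log2 difference of 0.19 (0.12 without KO4), and Pde11a, with one of 0.16 (0.06 without WT3). Both lay near the limit for dim genes, between 2.79 and 3.60 on all arrays. The other cyclic GMP effectors had positive differences in 4 of 7 genes (3 with quantile normalization or median centring) and a median of 0.00. Vasp, the actin regulator that the kinase phosphorylates, was at 7.82, 7.65 and 7.39 on the wild-type-labelled arrays and at 7.51, 7.42, 7.08 and 7.70 on the knockout-labelled arrays, a difference of -0.19 (-0.08 without KO3, -0.09 without WT1, -0.31 without WT3). Like Prkg1 it was lowest on KO3. The channel subunit gene Cngb1 differed by 0.08 (0.02 without WT2).

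**Figure D5:**
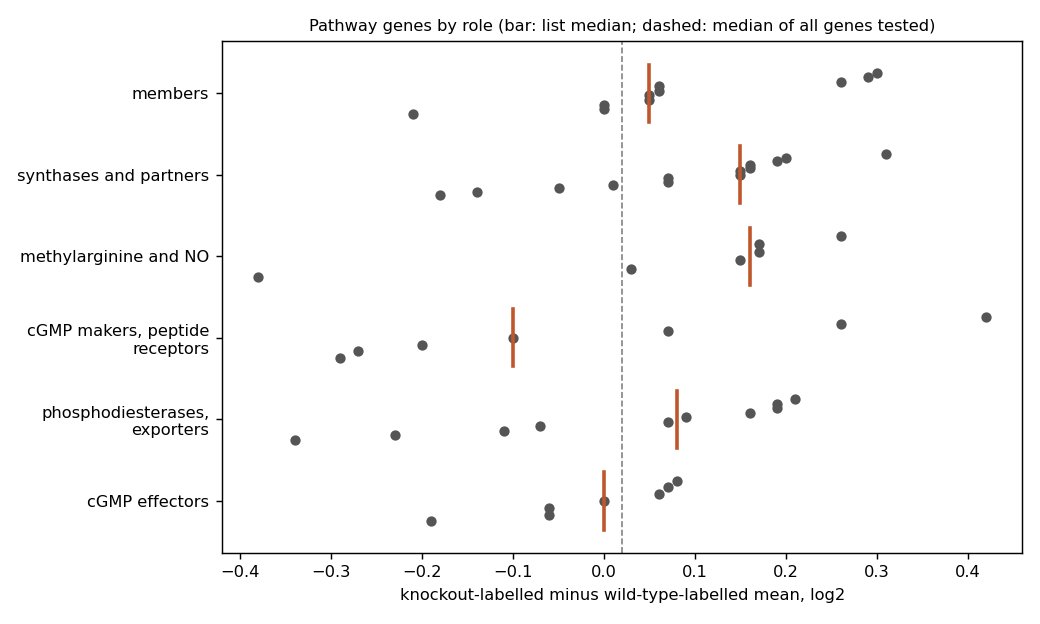
Knockout-labelled minus wild-type-labelled mean on the log2 scale (horizontal axis) of each member and of each other pathway gene tested, by list (vertical axis), with an orange bar at each list's median and a dashed line at the median of all genes tested, 0.02. List medians run from -0.10 for cyclic GMP makers and peptide receptors to 0.16 for methylarginine and nitric oxide by-product genes, and single genes from -0.38 to 0.42.

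Profiles over the 7 arrays were set beside those of 14541 tested genes, those with a name once small RNA genes and olfactory or vomeronasal receptors were passed over, each centred on its own mean, and likeness was the root mean square of the difference. Nearest to Nos3 were S100a7a (0.048 log2 units), Ndufv1 (0.059), Ctla2a (0.061), Nxnl2 (0.065) and Spaar (0.065), against an SD of 0.18 for Nos3 itself. All 5 shared its high values on WT1 and KO3, and their differences were between -0.02 and 0.17. The nearest other member was Nosip, at 0.16 and rank 1673. Nearest to Gucy1b1 were Edn3 (0.044), Sphk2 (0.061), Dtd2 (0.066), Rfx1 (0.067) and Zfp36l1 (0.068), all highest on KO1 and with differences of 0.17 to 0.30. Its partner Gucy1a1 was at 0.34 and rank 11301. Nearest to Cav1 were Vipr1 (0.016), Tmprss6 (0.017), Sspn (0.019), Lrrc1 (0.019) and Golt1a (0.021), genes of equally small spread. Some likeness of this kind is found for any profile over 7 arrays when many genes are searched.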

How the data were processed

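RNA of sorted lung endothelial cells was measured on 7 single-colour Affymetrix arrays, called WT1 to WT3 and KO1 to KO4 after their labels. Per the submitters' processing notes, the authors made the deposited values with RMA, which corrects background, normalizes by quantiles and summarises each probe set, in Affymetrix Expression Console 1.1. That these deposited values are log2 was read from the values. No genome build is given in the sources used here. Probe sets with exactly 1 symbol were named through GEO's platform annotation and a RefSeq table of GRCm38.p6, in which 99.2% of them had their gene identifier, and the brightest stood for each of 22180 genes. Genes with a mean in the lowest 25%, under 2.98 log2 units, were removed, and 16637 remained.

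Labels were compared with limma 3.58.1 in R 4.3.3 (lmFit and eBayes, two-sided, Benjamini-Hochberg over all tested genes, called at an adjusted p under 0.05), and the fit was tested on simulated data. The members, the gene lists and the arrays set aside together were chosen with earlier results of these data known. Named genes were the members, Sash1, Pecam1, Ptprc, Epcam, the 2 genes of smallest unadjusted p in each list, and the 5 nearest in profile to Nos3, Gucy1b1 and Cav1, with gene models lacking a name, small RNA genes and olfactory or vomeronasal receptors passed over. Alternatives were other filters on dim genes, quantile normalization, median centring, an intensity trend with robust moderation, the mean of probe sets, a replicate block, a threshold of 0.1 and each array left out. The check for pairing gave correlations of -0.18, -0.20 and -0.55 between deviations of arrays with replicate numbers 1, 2 and 3, so the numbers were not taken to pair samples.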

Additional observations from a re-analysis of the deposited data

Results flagged for a closer look

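Among the 51 genes examined, 9 had 1 knockout-labelled array set apart from the other arrays of that label, relative to their range. By chance such a test marks about 5% of genes whose values are not tied, and no excess is read from the count. Cav1 was at 10.27 on KO2 and at 10.19 on each of the other knockout-labelled arrays. Tmprss6 (3.82), Sspn (4.30) and Golt1a (3.88) stood out on the same array, Nxnl2 (4.36) on KO3 and Edn3 (6.14) on KO1. These 5 genes were chosen for profiles near that of a member, so their marks are not independent of it. KO4 stood out for Pde1c (3.30), for Ptprc (3.51) and for Epcam (4.06). Cav1, Tmprss6, Sspn, Golt1a and Nxnl2 had equal values on their other knockout-labelled arrays. A small distance is then enough for a mark, and the 5% does not apply to them.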

How the results depend on the processing

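No gene was called with any setting, and all 10 members stayed on the same side of the threshold. With each array left out, the genes at an unadjusted p under 0.05, 556 with all arrays, ranged from 295 to 1314, and the differences of Nos3 from -0.03 to 0.18, Nosip from -0.16 to 0.26, Nostrin from -0.05 to 0.08, Ddah2 from -0.01 to 0.11 and Pde5a from -0.12 to 0.12. Those of Pecam1 ranged from -0.03 to 0.03, Epcam from -0.34 to 0.12, Ctla2a from -0.12 to 0.14, Nxnl2 from -0.06 to 0.11, Ndufv1 from -0.05 to 0.11 and Lrrc1 from -0.003 to 0.03. Without WT3 and KO3 together, a choice made after seeing the data, the unadjusted count was 1779, 4 members had positive differences, and Nos3 (-0.11), Nosip (-0.19), Ddah2 (-0.002), Gucy1a1 (-0.09), S100a7a (-0.06), Ndufv1 (-0.10) and Nxnl2 (-0.11) turned sign. Lrrc1 turned with quantile normalization (-0.02), and Nostrin and Pecam1 with median centring (both -0.01). The replicate block, where the arrays shared only a number and no wild-type-labelled array correlated best with its own number, gave an unadjusted count of 225 and turned Pde5a (0.12), Epcam (0.12) and Ctla2a (0.01). The cause of these changes was not tested. The number of arrays, 3 against 4, limited the precision.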
